A study of Mus musculus with 2 samples.

Results

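The longer DNase-seq peak lists of gastrocnemius muscle held 7034 weak regions that were found in both animals. They were chosen by merging the longer lists of both libraries, keeping merged regions with a peak of each library, and dropping each region that overlapped a peak of either library's shorter list. The longer lists merged into 109303 regions, of which 51779 held a peak of each library, so the weak shared regions were 6.44% of all merged regions and 13.6% of those found in both libraries. By the authors' table of false discovery rates, longer-list peaks reach a rate of up to 0.05 and shorter-list peaks one of up to 0.001. The choice rests on the peak calls, and signal values and q-values of the regions are given as descriptions with no test.

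The 2 animals were 36-day-old males of B6CASTF1/J, first-generation hybrids of C57BL/6J and CAST/EiJ, and the tissue was the gastrocnemius, a calf muscle. Each animal gave 1 library, called replicate 1 and replicate 2. Both belong to a single untreated group, and no other genotype, age, sex or tissue was compared. Nuclei came from whole tissue, so muscle fibres, vessel cells, nerve sheath cells and resident immune cells all contribute, and a site open in few nuclei cannot be told apart from a site slightly open in many.

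DNase I cuts DNA preferentially where nucleosomes have been displaced, as at active promoters, enhancers and insulators. Strong sites of this kind in muscle include promoters of contractile and metabolic genes and enhancers bound by MyoD-family, MEF2 and nuclear factor I proteins. Within an open site, a bound protein can shield a few bases from cleavage, and such a short protected stretch is called a footprint.

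The longer list held 83409 peaks in replicate 1 and 83736 in replicate 2, and the shorter lists held 50760 and 49230. Depth in reads is unknown. In the shorter lists, 17 of 22 muscle regulator genes and 5 of 13 fast-fibre genes had a promoter peak in both libraries, as did 4 of 13 slow-fibre and 9 of 25 shared sarcomere genes, against 54.2% of all protein-coding genes. The count was 0 of 10 lymphocyte, 0 of 12 liver and 0 of 11 cardiac genes, 2 of 12 neuronal genes and 1 of 8 each of germ cell and keratinocyte genes. Throughout, strong regions are the 32769 merged regions that overlapped a shorter-list peak of each library. The other classes used for comparison are the 20494 weak regions of replicate 1 only and the 20574 of replicate 2 only. A further 11976 merged regions with a peak of each library overlapped a shorter-list peak of 1 library only. They are called mixed regions and are the class nearest to the weak shared one by the rule.

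The sequences of 3 weak shared regions give examples of motif matches under footprints that both libraries placed at the same position. They come from a larger set chosen by rule, and in each the match lies wholly inside the stretch shared by both footprints. Others of the set were less clear: a CAGCTG match at chr7:100943465-100943470 lay beside its shared stretch, 100943455-100943462. Such matches are not typical, since 4.19% of SP/KLF matches in weak shared regions touched such a stretch. All positions are on mm10, the letters are those of the reference, read from RefSeq's GRCm38.p6 sequence, and capitals mark the motif match. In an intron of Synpo2, which encodes an actin-binding protein of the Z-disc, the region chr3:123103310-123103479 held a match to the CTCF motif within a footprint of both libraries. In an intron of Sh3pxd2a, which encodes the podosome scaffold TKS5, the region chr19:47429374-47429500 held the palindromic nuclear factor I motif. Between genes and 1891 bp from the start of Bcar1, which encodes a focal adhesion adaptor, the region chr8:111745701-111745897 held the SP/KLF motif GGGCGGG on the reverse strand.
Synpo2 intron, CTCF, plus strand: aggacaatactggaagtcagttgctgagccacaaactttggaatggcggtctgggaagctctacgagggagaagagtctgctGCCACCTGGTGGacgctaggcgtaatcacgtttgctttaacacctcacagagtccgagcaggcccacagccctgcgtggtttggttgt
Sh3pxd2a intron, nuclear factor I, plus strand: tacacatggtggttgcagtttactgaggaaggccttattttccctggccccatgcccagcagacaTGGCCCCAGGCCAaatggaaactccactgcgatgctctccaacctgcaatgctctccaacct
near Bcar1, SP/KLF, plus strand: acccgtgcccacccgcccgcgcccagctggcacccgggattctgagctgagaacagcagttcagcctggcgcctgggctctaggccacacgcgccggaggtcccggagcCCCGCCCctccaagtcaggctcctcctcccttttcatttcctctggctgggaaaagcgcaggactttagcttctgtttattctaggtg

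Promoters of 2 muscle genes are shown whose start sites carried a weak shared region and no shorter-list peak. Myh4 was taken by a set rule, and Mb was picked after its values were seen. Myh4 encodes the myosin heavy chain of the fastest mouse fibres, and its region chr11:67237765-67237860 covers the RefSeq start at 67237812, although GENCODE places the gene's start at 67238029. The 250 bases before the RefSeq start, chr11:67237562-67237811, hold a MEF2 match at 67237630-67237639, an SRF match at 67237708-67237717, the E-box CAGCTG at 67237745-67237750 and TATAAA at 67237599-67237604 and 67237781-67237786. Only the last of these lies inside the region. Over 32851 RefSeq promoters, the same 250 bases held the MEF2 motif in 2.92%, the SRF motif in 1.47%, CAGCTG in 13.0% and TATAAA on the gene's strand in 7.59%. TATAAA was added to the search after the sequence was seen. Mb encodes myoglobin, the oxygen store of oxidative fibres, and the part of its region outside annotated exons, chr15:77022788-77022974, held CAGCTG. Of all weak shared promoter regions, 21.1% held CAGCTG in their central 200 bp.
Myh4, upstream 250 bases, plus strand: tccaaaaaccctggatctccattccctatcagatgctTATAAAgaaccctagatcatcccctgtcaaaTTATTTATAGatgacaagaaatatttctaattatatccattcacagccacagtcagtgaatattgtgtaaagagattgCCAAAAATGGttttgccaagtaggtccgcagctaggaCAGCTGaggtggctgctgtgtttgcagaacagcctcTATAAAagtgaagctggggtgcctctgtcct
Mb, minus strand: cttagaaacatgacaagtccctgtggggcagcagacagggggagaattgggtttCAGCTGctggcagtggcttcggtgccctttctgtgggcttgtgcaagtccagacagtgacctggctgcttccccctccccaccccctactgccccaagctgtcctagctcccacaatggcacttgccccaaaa

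Weak shared regions were short and low, but not the lowest of the longer lists. Their median width was 184 bp, with a range of 52 to 983 bp, against 260 bp for strong regions. Weak regions of replicate 1 only and replicate 2 only had medians of 120 bp and 107 bp. By the rule, weak shared regions join peaks of both libraries, so their widths cannot be compared directly with those of 1 library only. Weak shared regions covered 1.43 Mb, and 98.0% of them (6891) were made of 1 peak of each library. The signal, the authors' height of a peak, ran from 0.197 to 3.17 (median 0.703) in replicate 1 and from 0.0986 to 2.49 (median 0.591) in replicate 2. Strong regions had medians of 2.43 and 1.87, so the groups overlapped: 26.4% of the weak shared regions lay above the strong regions' 5th percentile in replicate 1 and 30.2% in replicate 2.

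Signal is scaled separately in each library, so ranks within a library are used to set the libraries side by side. The median weak shared region stood at the 25.2 percentile of the longer list of replicate 1 and at the 35.5 percentile in replicate 2. Weak regions of replicate 1 only had a median percentile of 17.5 and those of replicate 2 only one of 21.1. All signal values of a library were whole multiples of a step (100% of distinct values within 0.05 of a step), and the median weak shared region was 57 steps high in replicate 1 and 90 steps in replicate 2. Across the 7034 regions the signals of both libraries had a Spearman rho of 0.769, against 0.868 across strong regions. These points share libraries and peak widths and are no independent samples.

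**Figure D1:**
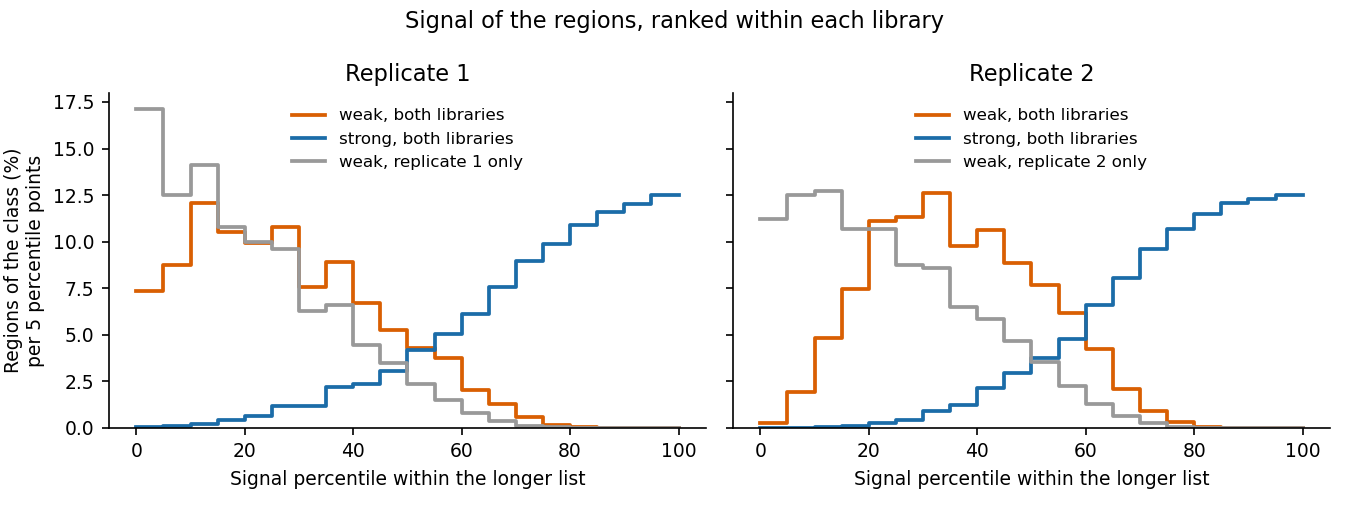
Signal percentile of regions within the longer list of replicate 1 (left) and replicate 2 (right), as the share of each class per 5 percentile points. Weak shared regions have medians of 25.2 and 35.5, strong regions lie mostly to the right, and weak regions of 1 library lie lowest.

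The lowest q-value under a region, from the authors' per-base table, was 0.00545 in the median region of replicate 1 and 0.00713 in that of replicate 2. It stayed above 0.01 in 35.0% of the regions in replicate 1 and in 40.6% in replicate 2. At the border of the rule, the highest such value among strong regions was 0.000995 in replicate 1 and 0.000973 in replicate 2. However, 841 weak shared regions in replicate 1 and 665 in replicate 2 reached 0.001 without a shorter-list peak. Not all of them were near it: the lowest value was 1.18e-05 in replicate 1 and 5.41e-34 in replicate 2. No source used here says why the shorter lists leave such regions out. In both libraries 5633 of the 7034 stayed above 0.001. The lowest signal of a strong region was 0.222 in replicate 1 and 0.112 in replicate 2, well under the highest of a weak shared one.

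Weak shared regions lay mostly away from start sites. Introns held 41.5% of them (2918; exact Clopper-Pearson 95% interval 40.3 to 42.6), intergenic sequence 33.9% (32.8 to 35.0), promoters within 500 bp of an annotated start site 16.3% (1147; 15.5 to 17.2) and exons 8.33% (7.7 to 9.0). Of all merged regions of the longer lists, 26.3% lay at promoters. Strong regions were at promoters in 47.2% (46.7 to 47.8) and in introns in 23.5%. Mixed regions were much closer to weak shared ones, with 18.4% at promoters (17.7 to 19.1) and 40.9% in introns. Weak regions of replicate 1 only were at promoters in 12.7% (12.2 to 13.2) and those of replicate 2 only in 18.1% (17.6 to 18.7). These intervals cover counting error only, and regions of the same genomes are not replicates.

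Over 1 kb from any start site lay 78.0% of the weak shared regions (5484), 76.2% of the mixed and 48.5% of the strong ones. Distance to the nearest protein-coding start had a median of 24600 bp, against 3770 bp for strong regions. Of the 1147 promoter regions, 893 lay at a start of a protein-coding gene and 254 (22.1%) at starts of other genes only, among them 95 at lincRNAs, 49 at antisense transcripts and 13 at miRNAs. For strong promoter regions the share at other genes only was 6.99%.

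**Figure D2:**
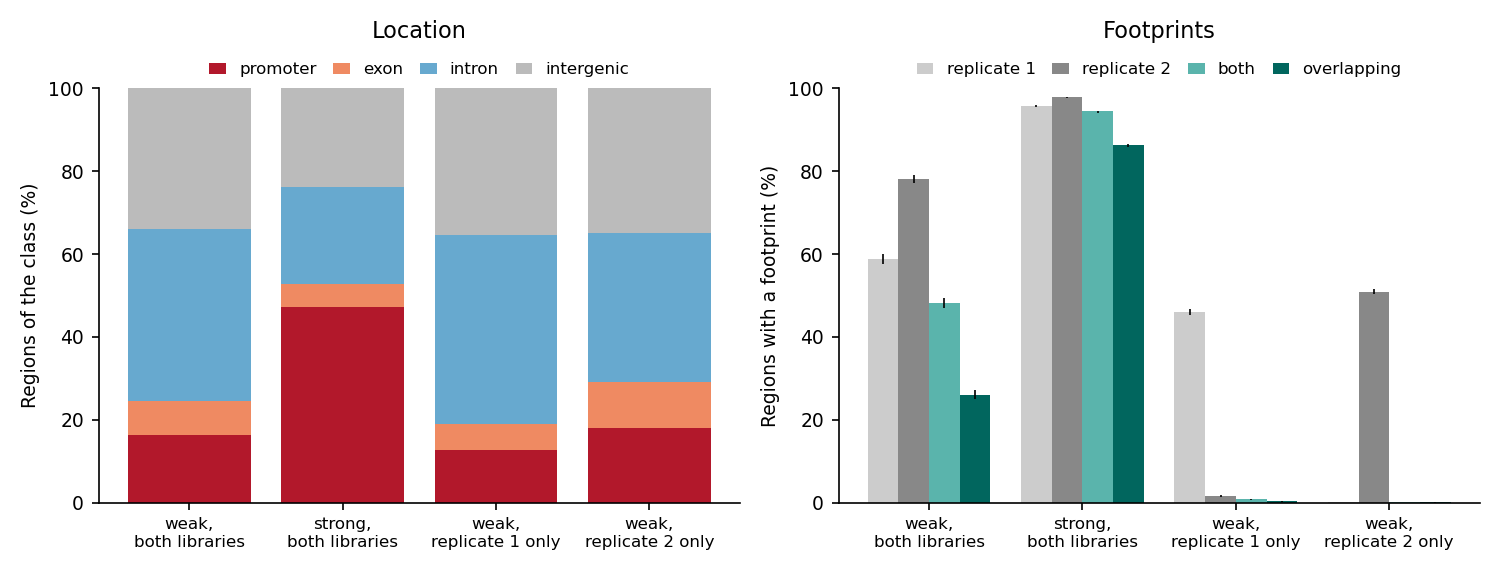
Location (left) and footprints (right) of 4 classes of regions, as percent of the class, with exact 95% intervals on the footprint bars. Weak shared regions were at promoters in 16.3% against 47.2% of strong ones, and had overlapping footprints in 26.0% against 86.2%.

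For 324 protein-coding genes, a start site carried a weak shared region and no shorter-list peak of either library, called a weak promoter only below. They are 1.48% of the 21851 protein-coding genes, and 3.59% of the 9025 genes with no shorter-list promoter peak in either library. In all, 635 genes had a weak shared region at a start site, and 252 of these also had a shorter-list promoter peak in both libraries and 59 in 1. Signal at the 324 genes ran from 0.234 to 1.85 in replicate 1 (median 0.641) and from 0.21 to 1.56 in replicate 2 (median 0.565). Overlapping footprints were present at 68 of the 324, a share near the 20.8% of all weak shared promoter regions.

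Contractile and metabolic genes of muscle fibres were among the 324. Myh4 had 0.74 in replicate 1 and 0.723 in replicate 2, at percentiles 28.0 and 45.2, with 1 footprint in each library at different positions and no strong region within 50 kb. Mybpc1, which encodes the slow myosin-binding protein C, had 0.912 and 0.499 at chr10:88605002-88605255, over its start. Myot, which encodes the Z-disc protein myotilin, had 0.937 and 0.493. Mb had 1.63 and 0.933, the highest of these listed genes, at percentiles 66.6 and 57.1, and a distal weak shared region of Mb, picked after its values were seen, had 1.79 and 1.03 with 3 overlapping footprints. Ranked within a library, Myh4 stood higher in replicate 2, and Mybpc1 (39.8 and 28.0), Myot (41.3 and 27.4) and Mb stood higher in replicate 1.

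By list, this was 1 of 13 fast-fibre genes, 1 of 13 slow-fibre genes, 1 of 25 shared sarcomere genes and 1 of 20 oxidative metabolism genes, and 0 of 20 glycolysis and glycogen genes and 0 of 22 muscle regulators. The background is 1.48% of all protein-coding genes, and counts of 0 or 1 do not set a list apart from it. Of the glycolysis genes, 19 of 20 had a shorter-list promoter peak in both libraries and so could not enter.

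Some markers of other cells of muscle were also at weak promoters. Pecam1, the endothelial adhesion molecule CD31, had 0.875 in replicate 1 and 0.828 in replicate 2 at chr11:106715158-106715395. Emcn, which encodes the endothelial mucin endomucin, had 0.431 and 0.355 at chr3:137341122-137341304, the lowest of the listed genes. Erbb3, the neuregulin receptor of Schwann cells, had 0.764 and 0.848 at chr10:128589661-128589880, and Mbp, myelin basic protein, 0.974 and 0.775. These were 2 of 14 endothelial and 2 of 10 Schwann cell genes, against 1.48% of all protein-coding genes. In the same lists, 7 endothelial and 5 Schwann cell genes had a shorter-list promoter peak in both libraries. Emcn and Mbp were lost when the peaks of both libraries had to overlap by 50%, which leaves 1 in each list, and Emcn also when low signal was left out. No satellite cell, fibro-adipogenic, smooth muscle, macrophage, lymphocyte, adipocyte, liver, neuronal or cardiac list gene had a weak promoter only.

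**Figure D3:**
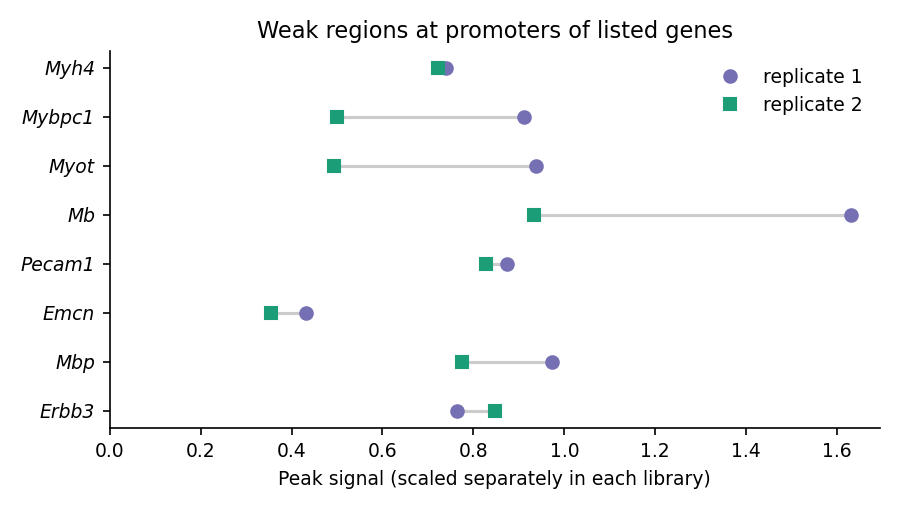
Signal of the weak shared region at the promoters of 8 listed genes in replicate 1 (circles) and replicate 2 (squares). Values run from 0.355 for Emcn to 1.63 for Mb, and each library has its own scale.

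The rest of the 324 genes, from which the following were picked after their values were seen, held more muscle genes. Trim54, a sarcomere-associated ubiquitin ligase, had 1.34 in replicate 1 and 0.854 in replicate 2. Mrln, which encodes the micropeptide myoregulin that inhibits the SERCA calcium pump, had 1.12 and 0.67. Smyd1, a muscle methyltransferase needed for sarcomere assembly, had 0.653 and 0.808, and Plin5, a lipid droplet protein of oxidative tissue, had 1.78 and 1.18. Eef1a2, the translation elongation factor form of adult muscle and neurons, had 1.01 and 1.02. Lmnb2, which encodes lamin B2, had 1.85 and 1.36, the highest of the 324 in replicate 1 but not in replicate 2.

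Among transcription factor genes, Pitx1, which specifies hindlimb identity, had 0.888 and 0.821, and Tbx4, its partner in limb patterning, had 0.69 and 0.736. Stab1, a scavenger receptor of sinusoidal endothelium and macrophages, had 1.21 and 0.966. Tyrobp, the DAP12 adaptor of myeloid cells, had 0.826 and 0.775. Lyve1, a hyaluronan receptor of lymphatic endothelium and some macrophages, had 0.678 and 0.591. Each of these values lay below the strong regions' medians of 2.43 and 1.87.

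Distal weak shared regions, over 1 kb from any start site, fell within the body or 10 kb either side of 3167 protein-coding genes, 14.5% of the total. Of the 5484 distal regions, 2000 (36.5%) lay in no such gene or flank. Longer genes had more of them. A distal weak shared region was found at 5.45% of genes under 10 kb and 10.4% of those of 10 to 30 kb. The share was 19.2% for genes of 30 to 100 kb and 43.9% for genes of 100 kb or more. The median length was 17.4 kb over all protein-coding genes and 54.9 kb over those with such a region, so list counts are given with the list's median length.

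Regulators of muscle identity had distal weak shared regions at 12 of 22 genes (54.5%; median length 56.1 kb), 14 regions in all. The share was 14.5% over all protein-coding genes and 19.2% over those of 30 to 100 kb. The 22 genes also had 59 distal strong regions. Mef2a, which encodes a MEF2 factor of differentiated muscle, had 2, with 1.04 in replicate 1 and 0.789 in replicate 2 for 1 of them and 0.653 and 0.749 for the other. Myf6, which encodes the myogenic factor MRF4, had 1 with 0.863 and 0.46 and an overlapping footprint, and no strong distal region. Mef2d had 1 with 1.81 and 1.26. Myf6 and Mef2d were picked after their values were seen.

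Among sarcomere genes shared by all fibres, 9 of 25 (36.0%; median length 18.1 kb) had distal weak shared regions. Ldb3, which encodes the Z-disc protein ZASP, had 2 intronic ones, chr14:34554124-34554340 with 1.48 and 1.04 and chr14:34564731-34564985 with 1.62 and 1.18, each with an overlapping footprint. The fast-fibre list had 0 of 13 (17.2 kb), though it had 7 distal strong regions. Actn3, which encodes the alpha-actinin of fast fibres, had no distal strong region and was named by alphabet, as all 13 genes tied. The slow-fibre list had 2 of 13 (28.3 kb), 1 of them Myh7b, a slow myosin gene, with 0.974 and 0.986 in an exon at chr2:155613481-155613689. Myh3, the embryonic myosin gene, had 1 with 1.76 and 0.697, 4175 bp from the nearest shorter-list peak.

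Metabolic and stress genes included Hk2, the hexokinase of insulin-sensitive muscle, which had 3 intronic weak shared regions and no strong distal region. Their values were 1.16 and 0.887 at chr6:82740281-82740570, 1.28 and 1.02 at chr6:82751100-82751391, and 1.37 and 0.887 at chr6:82753151-82753357. Ddit4, which encodes the stress-induced mTORC1 inhibitor REDD1, also had 3 and no strong distal region: 1.37 and 0.578, 1.43 and 0.618, and 1.62 and 1.06. The last of them, chr10:59953086-59953289, lay 343 bp from a shorter-list peak. Slc25a4, the ADP/ATP carrier of heart and muscle mitochondria, had 3 of low signal, 0.493 to 0.592 in replicate 1 and 0.605 to 0.677 in replicate 2.

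The oxidative list had 7 of 20 genes with a distal weak shared region (35.0%; 24.1 kb), the atrophy and stress list 6 of 14 (42.9%; 13.6 kb), the excitation-contraction list 3 of 16 (18.8%; 46.6 kb), the neuromuscular junction list 3 of 14 (21.4%; 14.5 kb) and the glycolysis list 3 of 20 (16.6 kb). Asph, which encodes junctional proteins of the calcium release machinery, had 3, with 0.678 to 0.875 in replicate 1 and 0.421 to 0.526 in replicate 2. Colq, the collagen tail of acetylcholinesterase, had 2, with 1.1 and 0.611 and with 0.653 and 0.506. Satellite cell genes, of the muscle's stem cells, had 5 of 12 (26.5 kb), circadian genes 5 of 12 (38.0 kb) and neuronal genes 5 of 12 (50.6 kb). Adipocyte genes had 3 of 9 (11.5 kb), fibro-adipogenic genes 3 of 12 (32.2 kb), germ cell genes 2 of 8 (9.02 kb) and endothelial genes 3 of 14 (44.3 kb). Smooth muscle genes had 2 of 12, macrophage and liver genes 1 of 12 each, Schwann cell genes 1 of 10 and housekeeping genes 1 of 14. Lymphocyte, erythroid, tendon, keratinocyte and cardiac genes, with list medians of 4.88 to 15.3 kb, had 0. Lists of muscle and of other cells and tissues thus lay on both sides of the 14.5% of all protein-coding genes.

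Genes with the most distal weak shared regions were long. Cdh13, the GPI-anchored T-cadherin, had 8 over 1040 kb, Auts2 7 over 1110 kb and Dnm3, a dynamin, 6 over 496 kb. Fgfr2, a fibroblast growth factor receptor, had 7 over an annotated span of 2960 kb, and the gene model Gm20388 had 31 over 4430 kb. The nearest protein-coding gene of a distal weak shared region had a shorter-list promoter peak in both libraries in 70.9% of cases, the same as for distal strong regions (70.9%) and above weak regions of replicate 1 only (69.2%) and replicate 2 only (63.4%). Over all protein-coding genes the share was 54.2%.

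The highest weak shared regions are named here by the lower of their percentiles in both libraries, 3 in each location class. They had 4 to 17 strong regions within 50 kb, against a median of 2 for all weak shared regions. The top region, chr10:81415646-81415900 inside Nfic, which encodes a nuclear factor I protein, had 3.17 in replicate 1 and 2.49 in replicate 2, lay at the start of Mir1191b, and had 17 such neighbours. A weak region in an intron of Nfic, chr10:81401786-81402160, had 2.53 and 2.01. Rara, the retinoic acid receptor alpha gene, had a promoter region chr11:98960313-98960720 with 2.33 and 2.48 and 4 overlapping footprints, and an intronic one, chr11:98942081-98942358, with 2.75 and 2.1. Pgf, which encodes placental growth factor, had 2.52 and 1.66 at an annotated start, 526 bp from a shorter-list peak.

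By the same ranking, the highest in exons was chr9:44094201-44094391 in Usp2, which encodes a ubiquitin protease, with 2.66 and 2.12 and 2 overlapping footprints. Next were an exon of Traf4, a signalling adaptor, with 2.17 and 1.4 and an exon of the lincRNA 2210008F06Rik near Ankrd13b, with 1.82 and 1.31. The third intronic region by this ranking, in the lipoprotein receptor gene Lrp1, had 1.96 and 1.72. Between genes the first by this ranking were near Jund, an AP-1 subunit, with 1.79 and 1.37, near Bcar1, with 2.03 and 1.28, and near Cirbp, a cold-inducible RNA-binding protein, with 1.95 and 1.27.

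The nearest shorter-list peak of either library was at a median of 6890 bp from a weak shared region, and the nearest strong region, called in both shorter lists, at 13600 bp. A shorter-list peak of either library was within 150 bp for 3.03% of the regions, within 1 kb for 20.2%, within 10 kb for 58.3% and beyond 100 kb for 5.43%. Weak regions of replicate 1 only had a median of 9020 bp to such a peak and those of replicate 2 only 3440 bp. To strong regions their medians were 18100 bp and 13800 bp, so the order of the classes depends on which peaks are used.

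Signal and neighbourhood moved together among the weak shared regions. They were split into 5 ranges of near equal size by the lower of their percentiles in both libraries and the highest range began at the 40.5 percentile. From the lowest to the highest range, the median number of strong regions within 50 kb was 1, 1, 2, 3 and 5, and the median distance to a shorter-list peak was 26300, 12200, 7370, 4870 and 3220 bp. Across the 7034 regions the lower percentile and the number of strong neighbours had a Spearman rho of 0.574. Weak regions of replicate 1 only gave 0.573 and those of replicate 2 only 0.449, so the relation was also present outside the shared set. The intergenic share was 41.6% in the lowest range and 25.5% in the highest, while the promoter share was 18.5% in the lowest range, 13.8% in the middle and no lower in the highest than in the lowest.

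**Figure D4:**
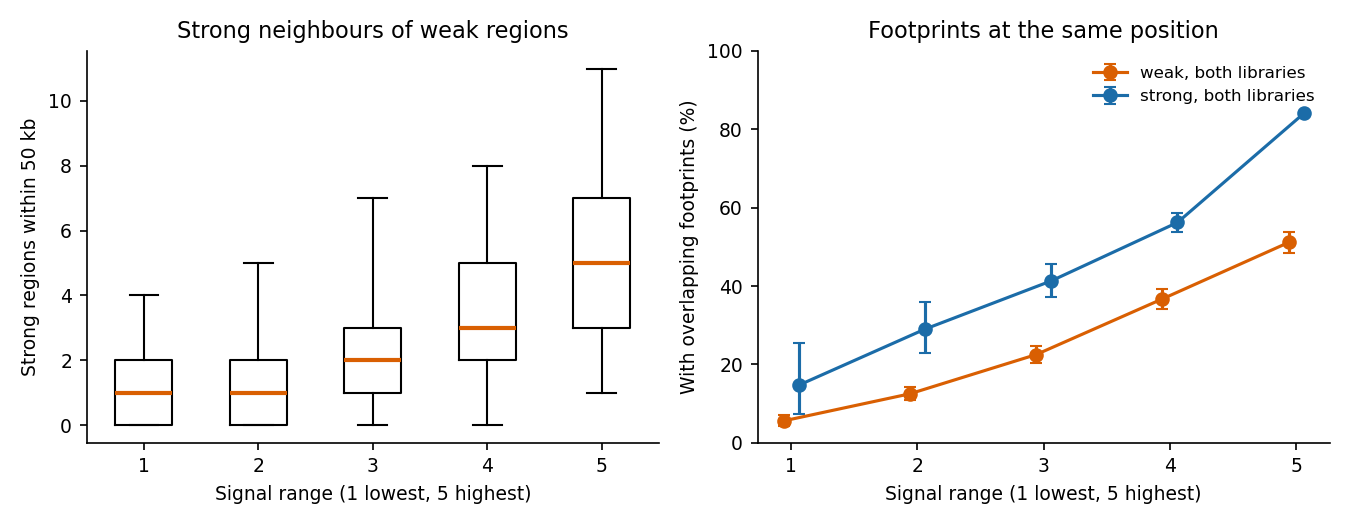
Left, strong regions within 50 kb of weak shared regions in 5 signal ranges (line, median; box, quartiles; whiskers, 5th and 95th percentiles). Right, percent of regions with overlapping footprints in the same ranges, with exact 95% intervals: 5.59% to 51.1% for weak shared and 14.7% to 84.0% for strong regions.

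Footprints were called in many weak shared regions, but often at different positions in each animal. Replicate 1 had a footprint in 58.9% of them (4143), replicate 2 in 78.1% (5492), both in 48.3% (3398; 47.1 to 49.5) and neither in 11.3% (797). Footprints of both libraries overlapped each other in 26.0% of the regions (1832), which is 53.9% of those with a footprint in both. Over all merged regions, 40.1% had a footprint in both libraries and 33.4% overlapping ones. Strong regions had footprints in both in 94.4% and overlapping ones in 86.2% (85.8 to 86.6), which is 91.3% of those with both. Mixed regions lay between, with footprints in both in 72.4% and overlapping ones in 48.8%.

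Per covered kilobase, weak shared regions held 4.19 footprints in replicate 1 and 7.27 in replicate 2, against 9.61 and 13.6 in strong regions. Their footprints had a median width of 8 bp in each library. Overlapping footprints were least frequent at promoters (20.8%; 18.5 to 23.3) and were found in 28.3% of exonic (24.7 to 32.2), 28.5% of intronic (26.8 to 30.2) and 596 of 2383 intergenic regions (23.3 to 26.8).

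Overlapping footprints were more frequent at higher signal, from 5.59% of weak shared regions in the lowest range through 12.5%, 22.5% and 36.7% to 51.1% in the highest. Strong regions of the same signal ranges had 14.7% (68 regions), 29.0%, 41.3%, 56.2% and 84.0%. The 95% intervals of weak shared and strong regions did not overlap in any range, the nearest being 4.4 to 6.99 and 7.28 to 25.4 in the lowest. Strong regions were wider in each range, with medians of 260 to 320 bp against 176 to 197 bp, and in the top range their median lower percentile was 67.8 against 48.3, while in the range below it was 35.9 against 34.2. The part of width and of signal within a range was not tested.

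Sequence motifs were searched on both strands in the central 200 bp of each region and in all 12796535 such windows of chromosomes 1 to 19 and X. The muscle E-box CAGCTG, bound by MyoD-family proteins, was in 24.5% of weak shared regions (23.5 to 25.6), in 19.5% of strong regions and in 7.22% of genome windows. The nuclear factor I palindrome was in 3.1% (2.71 to 3.53), 2.21% and 0.287%. AP-1, TGANTCA, the motif of FOS and JUN dimers, was in 9.11% (8.45 to 9.81), 6.45% and 5.93%. CTCF, the insulator protein, had a match in 4.18% (3.72 to 4.67), 7.39% and 0.0935%. Mixed regions had CAGCTG in 24.2%, nuclear factor I in 2.71%, AP-1 in 9.99% and CTCF in 5.64%. Each motif was counted separately, and matches of different motifs can share bases. Genome windows were not matched for GC content, whose mean was 41.8% against a median of 54.0% in weak shared regions. The part of GC content in the differences from the genome was not tested.

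Motifs of promoter-bound factors had lower shares in weak shared than in strong regions. SP/KLF, GGGCGGG, was in 7.01% (6.42 to 7.63) against 22.2% of strong regions and 0.992% of genome windows. NRF1, a regulator of nuclear genes for mitochondria, was in 0.398% (0.265 to 0.575) against 4.01% and 0.0555%, and the ETS motif in 0.398% against 2.78% and 0.121%. The AT-rich MEF2 motif was in 1.78% (1.48 to 2.11) against 1.14% of strong regions, and in 4.64% of genome windows. The mean GC content of genome windows was 41.8% against a median of 54.0% in weak shared regions. Mixed regions were near weak shared ones, with SP/KLF in 7.36%, NRF1 in 0.317% and ETS in 0.351%.

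Away from promoters CTCF differed most in percentage points, and SP/KLF and NRF1 also had intervals that did not overlap. Over 1 kb from any start site, CAGCTG was in 25.7% of weak shared (24.5 to 26.8) and 25.8% of strong regions (25.1 to 26.5). Nuclear factor I was in 3.3% (2.84 to 3.81) and 3.39% (3.12 to 3.69), AP-1 in 9.94% (9.16 to 10.8) and 10.1% (9.63 to 10.6), and ETS in 0.365% (0.223 to 0.563) and 0.453% (0.354 to 0.57), all with overlapping intervals. CTCF was in 4.85% (4.3 to 5.45) and 12.8% (12.3 to 13.3). SP/KLF was in 4.38% (3.85 to 4.95) and 6.61% (6.23 to 7.01), and NRF1 in 0.237% (0.126 to 0.405) and 0.666% (0.546 to 0.805). Distal weak regions of replicate 1 only and replicate 2 only had less CAGCTG, 22.0% (21.3 to 22.6) and 19.1% (18.5 to 19.8). Their CTCF shares were also lower, 2.81% and 1.43%. AP-1 was more frequent in those of replicate 1 only, 12.1% (11.6 to 12.6), and less frequent in those of replicate 2 only, 6.02% (5.64 to 6.41).

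Split by signal, the CTCF difference in percentage points was largest in the top range. From the lowest to the highest range, distal weak shared regions had the CTCF motif in 3.47%, 4.17%, 4.26%, 6.14% and 6.13%. Distal strong regions had it in 5.88% (34 regions), 9.26% and 6.91% in the lower 3 ranges and in 13.0% in the highest. The intervals overlapped in the lower 3 ranges and not in the upper 2, where they were 4.82 to 7.69 against 8.28 to 11.9 and 4.76 to 7.75 against 12.4 to 13.6. In the top range the strong regions also had the higher signal, as given above.

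CTCF and nuclear factor I matches were the ones most often under footprints of both animals. Their motifs, of 12 and 13 bp, are also longer than the others named here, of 6 to 10 bp. A longer match touches a footprint more easily, and the part of length was not tested. Overlapping footprints covered 1.23% of the bases of weak shared regions and 8.6% of those of strong regions. Of 298 CTCF matches in weak shared regions, 126 (42.3%) touched the common part of overlapping footprints by at least 1 bp. For nuclear factor I it was 72 of 234 matches (30.8%). NRF1 had 6 of 33 (18.2%), SP/KLF 28 of 669 (4.19%), ETS 1 of 29 (3.45%), CAGCTG 63 of 2105 (2.99%), MEF2 1 of 120 (0.833%) and AP-1 5 of 694 (0.72%). In strong regions the shares were 91.5% for CTCF, 76.8% for nuclear factor I, 79.2% for NRF1, 42.9% for SP/KLF and 12.8% for CAGCTG, so CTCF came first in both classes. Of the 294 weak shared regions with a CTCF match, 51.4% (45.5 to 57.2) had overlapping footprints, against 24.9% (23.9 to 26.0) of those without. Their median signals were 0.764 and 0.657 with the match and 0.703 and 0.591 without, and the part of that difference was not tested.

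**Figure D5:**
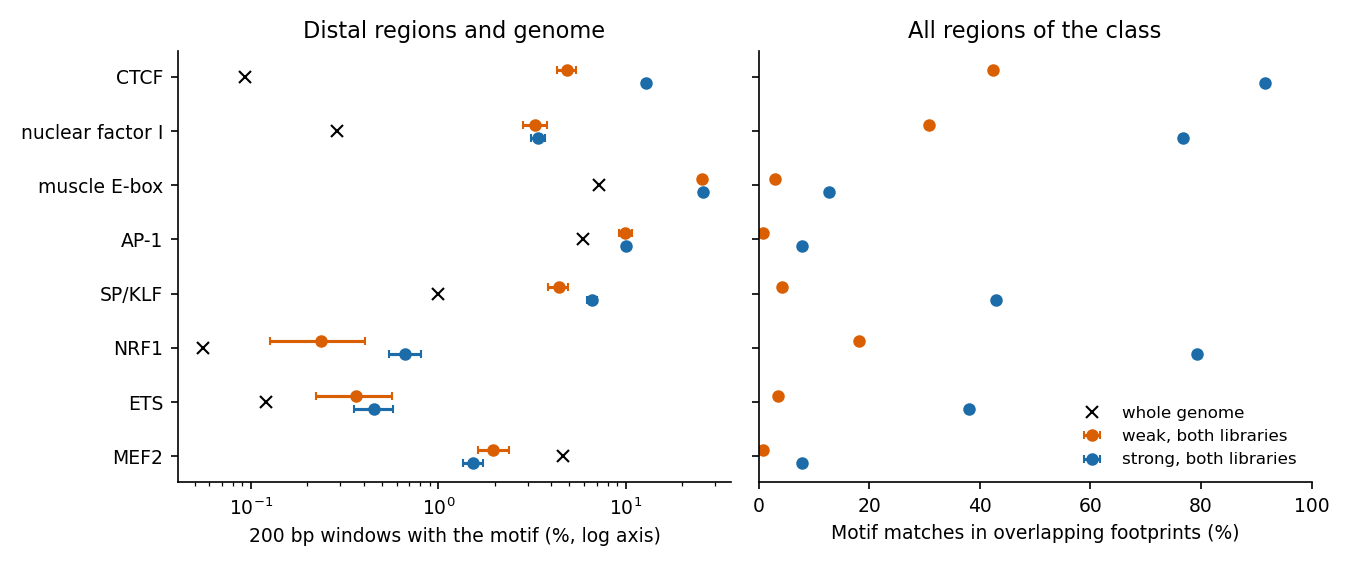
Left, percent of 200 bp windows with each motif in distal weak shared and distal strong regions, with exact 95% intervals, and in the whole genome (log axis). Right, percent of matches at overlapping footprints of both libraries over all regions of each class. In the left panel CTCF differs most in percentage points, 4.85% against 12.8%, and in the right it is highest, 42.3% and 91.5%.

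Base composition set weak shared regions between strong regions and the genome. Median GC content was 54.0%, against 58.5% in strong regions, 53.5% in mixed regions, and 51.0% and 54.0% in weak regions of replicate 1 only and replicate 2 only. Weak shared and strong regions were closer within a location: 53.5% and 54.5% in introns, and 53.0% and 54.0% between genes. CpG-rich windows, with the density of CpG islands, made up 9.92% of weak shared and 40.9% of strong regions, and at promoters 36.1% against 75.5%. Such windows were 11.5% of mixed regions, and 6.38% and 11.7% of weak regions of replicate 1 only and replicate 2 only. Repeat-masked bases were 8.65% of the windows, against 5.99% in strong regions, 12.1% and 17.0% in weak regions of replicate 1 only and replicate 2 only, and 34.3% in the genome. Windows that were mostly repeat were 2.89% of weak shared regions and 12.9% of those of replicate 2 only.

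On the X chromosome, of which male mice carry a single copy, lay 153 weak shared regions (2.18%; 1.85 to 2.54), a share near that of strong regions (2.23%) and of all merged regions (2.63%). Their signal was low, with medians of 0.431 in replicate 1 and 0.315 in replicate 2 against 0.715 and 0.598 on autosomes. Strong regions on X were also lower than autosomal ones, with medians of 1.73 and 1.28 against 2.45 and 1.89. In the lowest signal range 8.62% of weak shared regions were on X (111 regions), and in the highest 0.415% (6 regions). Overlapping footprints were found in 16 of the 153 (10.5%) against 26.4% on autosomes. Itgb1bp2, which encodes the striated muscle protein melusin, was among the X-linked genes with a weak promoter only, at 0.333 and 0.381, and was picked after its values were seen. Across the autosomes, weak shared regions per 100 strong regions ranged from 17.4 on chromosome 7 to 26.9 on chromosome 18.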

How the data were processed

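DNase-seq peaks, footprints and false discovery rates of 2 libraries were used as deposited by the authors, on mm10 per the labels; no source used here names the aligner, the callers or how CAST/EiJ alleles were aligned. The deposited signal is the authors' peak height, scaled per library. Deposited q-values give the false discovery rate per run of bases. The footprint score is a constant in the deposited lists, so footprints were used by position. Each library has a longer and a shorter peak list, called per library. Longer-list peaks overlapping by 1 bp were merged, and a region's signal in a library is that of its highest peak. Start sites and genes are from GENCODE release 21 on GRCm38, and the sequence is RefSeq's GRCm38.p6.

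Gene lists covered muscle, other cells of muscle and other tissues: 27 lists with 349 genes, 348 matched. Members and lists were chosen with earlier results of these data known. Named genes were up to 4 per list with a weak promoter only, the 3 highest regions per location class by the lower percentile, the 5 genes with most distal regions and the top gene of each muscle list, besides those said to be picked later. CpG-rich windows had over 50% GC and an observed to expected CpG ratio over 0.6. The 21 motifs were consensus searches. A match counted at overlapping footprints touched their common part by at least 1 bp. Only for choosing printed sequences was the common part widened by 10 bp, and the match had to lie inside it. Scripts were tested on simulated data and run in Python 3.11.15 with pandas 2.3.3 and scipy 1.17.1. Depth in reads is unknown. With 1 group, no test between groups could be made.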

Additional observations from a re-analysis of the deposited data

How the results depend on the processing

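The number of weak shared regions kept its size when the peaks of both libraries had to overlap by 50% (6291), when regions within 150 bp of a shorter-list peak were dropped (6821) and when peaks up to 100 bp apart were merged (7284). It was 3463 when longer-list peaks under the 25th percentile of signal were left out, and the share on X was then 0.433% against 2.18%. With 1 library alone, the number of weak regions was 33079 to 35550, their share on X 2.87% to 2.97%, the genes with a weak promoter only 1060 to 1163, the promoter share 16.1% to 17.0% and the share of weak shared regions with any footprint 58.9% to 78.1%. The promoter share was 9.28% with protein-coding start sites only and 22.0% within 1 kb, against 16.3%. Overlapping footprints were found in 24.2% when only bases covered by peaks of both libraries were counted, against 26.0%. Genes with a distal weak shared region were 29.4% with flanks of 50 kb, and the median distance to a region of both shorter lists was 13600 bp. Among the 8 named promoters, Emcn and Mbp were lost when peaks had to overlap by 50%, and Emcn when low signal was left out. No paired analysis was possible because there is 1 group. Intervals cover counting error only, and with depth in reads unknown, regions and footprints that were not called cannot be taken as absent.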
